A study of Mus musculus with 15 samples.

Results

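The repeat annotation of the mouse genome holds, beside the transposable elements, rows for the structural RNAs and the many copies they have left behind. A row was taken here when its name began with tRNA- or BC1, was U followed by a number, began with 7S, was 5S, 4.5SRNA or HY with a digit, or held rRNA. The rule found 82 of 1217 repeat classes. Of these, 60 were tRNA rows named by amino acid and codon, 5 were spliceosomal snRNAs (U1, U2, U4, U5 and U6), 5 were snoRNAs (U3, U8, U13, U14 and U17), 4 were Y RNAs (HY1, HY3, HY4 and HY5) and 3 were rRNAs (SSU-rRNA_Hsa, LSU-rRNA_Hsa and 5S). The rest were U7, 7SK, 7SLRNA, 4.5SRNA and BC1_Mm. No measured value entered the rule. The RNA came from E14 cells, a feeder-free line of mouse embryonic stem cells (ESCs) of 129 background, infected with lentiviral pLKO.1 vectors that carried a non-targeting hairpin (shScr), a hairpin against Tet1 (shTet1) or one against Tet2 (shTet2). All 3 groups received puromycin from 24 h after infection, were harvested when 3 days of it had passed, and held 5 libraries each. Each gene was targeted by a single hairpin, so that a hairpin and its target gene cannot be told apart, and the labels do not say which libraries came from separate infections. The p-values below therefore measure the spread between these libraries, part of which may be technical.

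Structural RNAs carry out the basic steps of gene expression. RNA polymerase I makes the large rRNAs, RNA polymerase II makes most spliceosomal snRNAs and U3, and RNA polymerase III makes tRNAs, 5S rRNA, U6, 7SK, 7SL, Y RNAs, BC1 and 4.5S RNA. The spliceosomal snRNAs recognise and cut introns, the snoRNAs guide the processing or modification of rRNA, 7SK holds the elongation factor P-TEFb in an inactive particle, and 7SL is the RNA scaffold of the signal recognition particle. TET1 and TET2 oxidise 5-methylcytosine, and the study asked how their loss affects repeats.

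The sequences below are the most frequent identical copies annotated under the names U1 and U2 and the gene of U8, and they are shown because a repeat row pools such copies with many altered ones. They were read from mm9, the build of the files, at the positions of the GENCODE annotation. Capitals mark some of the bases of U1 that pair with the 5′ splice site and some of those of U2 that pair with the branch site. No base of U8 is marked. The U1 copy is at chr11:87236369-87236532 (plus strand, within the coding gene Tex14), the U2 copy at chr11:101488680-101488870 (plus strand, within Rdm1) and the U8 gene, Snord118, at chr11:68886929-68887063 (plus strand, in no coding gene).
U1: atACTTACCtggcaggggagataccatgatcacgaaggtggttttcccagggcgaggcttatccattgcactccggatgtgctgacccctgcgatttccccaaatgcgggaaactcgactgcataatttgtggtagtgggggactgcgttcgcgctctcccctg
U2: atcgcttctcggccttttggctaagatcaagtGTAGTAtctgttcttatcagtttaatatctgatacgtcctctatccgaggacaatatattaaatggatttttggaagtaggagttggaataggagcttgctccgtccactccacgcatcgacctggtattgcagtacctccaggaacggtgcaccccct
U8: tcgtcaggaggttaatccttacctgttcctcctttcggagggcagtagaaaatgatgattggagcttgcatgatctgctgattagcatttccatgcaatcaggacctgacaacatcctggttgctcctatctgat
The U1 sequence occurred at 7 of 206 loci annotated as U1, which held 196 different sequences in all, and the U2 sequence at 4 of 51. The marked letters, searched on the annotated strand of each locus, were in 31.1% of the U1 loci (ACTTACC) and 56.9% of the U2 loci (GTAGTA). No sequence occurred more than once among the 331 loci annotated as 7SK or the 43 annotated as U4. The counts below do not tell working genes from altered copies. The BC1 RNA, whose start resembles a tRNA and is shared by the ID family of short interspersed repeats, is shown by its first 50 bases from RefSeq (GRCm38.p6, chr7:144914470-144914519, plus strand), with no base marked.
BC1: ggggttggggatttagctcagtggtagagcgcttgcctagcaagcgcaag

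Total RNA was depleted of rRNA and sequenced, so that the rRNA rows measure what that depletion left. The deposited values were variance-stabilised, and whole reads were recovered from them. The libraries held 15258291 to 35432425 reads on genes, and the 82 rows took 13 to 32.4% of the reads on repeats, most in shTet1 replicate 2. Levels are given as reads for every 1000000 reads on genes (RPM), and differences between groups on the deposited log2-like scale. Levels of different rows are compared as reads only, since the length of RNA behind a row is not known. Tet1 was at 27.8% of its shScr level in shTet1 (limma, adjusted p = 0.000228) and Tet2 at 26.6% of it in shTet2 (adjusted p = 3.67e-07). Of the marker lists, 10 ESC genes summed to 93147 to 143800 normalised reads per library and 10 fibroblast genes to 391 to 570, and 4 of the 10 fibroblast genes averaged under 10 normalised reads. The 10 primitive endoderm genes summed to 2628 to 6624.5 and the 8 neural genes found to 1787 to 4261. The primitive endoderm genes had a median difference of -0.64 between shTet2 and shScr, 6 of 10 with an unadjusted p under 0.05 and 0 with an adjusted one. Of all genes tested, 11.6% and 0.39% met these thresholds. With the replicate number as a block, 3 of the 10 passed the adjusted test, beside 4.31% of all genes. The ESC genes had a median difference of -0.41 between shTet2 and shTet1, with 10 of 10 lower (-0.61 to -0.20). Of these, 1 passed the adjusted test, beside 4.24% of all genes, and 2 passed with the block, beside 11.2%. Between shTet1 and shScr their median difference was 0.26 with 0 passing, beside 0.0718% of all genes. The part of these genes in the results below was not tested. In 4 libraries (shScr replicate 4, shTet1 replicates 3 and 4, shTet2 replicate 4), the 1448 receptor genes named Olfr or Vmn, known for their use in the nose, held 54.5 to 64.7 RPM, against 11.1 to 26.5 elsewhere. In bulk RNA, fewer cells with an RNA and less RNA per cell cannot be told apart.

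A few rows held most of the reads. 7SK took 48.7% of the reads on the 82 rows and had more reads than any other of the 1217 classes. 7SLRNA took 14.3%, U2 10.4%, U1 8.41%, LSU-rRNA_Hsa 6.43%, SSU-rRNA_Hsa 5.55% and 4.5SRNA 3.14%. The 60 tRNA rows together took 1.09%. At the other end, HY5 had 1 read in 1 library and tRNA-Gln-CAA_ 1 read in 1 library, and these 2 rows did not pass the filter, which asked for a read in 5 or more of the 15 libraries. The other 80 rows were tested. For a library with no read on a row, a count of 0 allows up to 3 reads, which is 0.0847 to 0.197 RPM, and these limits cover counting error only.

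Over all 80 tested rows, 0 passed an adjusted p under 0.05 (limma) in any of the 3 comparisons. Of the 1187 classes tested, 0% passed between shTet1 and shScr, 0% between shTet2 and shScr and 0.253% between shTet2 and shTet1. Between shTet1 and shScr, 2 rows had an unadjusted p under 0.05, both lower, beside 0.842% of all classes. Between shTet2 and shScr there were 7, all higher, which is 8.75% of the rows beside 1.26% of all classes. Between shTet2 and shTet1 there were 4, all higher, beside 2.7%. The 7 were 4.5SRNA, 7SLRNA, U1, U8, tRNA-Leu-TTA(m), tRNA-Met_ and tRNA-Pro-CCA, and the last pair was named after its values were seen. Groups did not overlap for 0 rows in the comparison of shTet1 with shScr (0.168% of all classes), for 0 with shTet2 and shScr (0.505%) and for 2 with shTet2 and shTet1 (1.18%). With the replicate number as a block, 0 rows passed the adjusted test between shTet1 and shScr or between shTet2 and shTet1, and 3 and 5 had an unadjusted p under 0.05, beside 2.61% and 4.63% of all classes. Between shTet2 and shScr the block gave 0 and 14 rows, beside 3.54% of all classes at the unadjusted threshold. Same-numbered libraries of these 2 groups deviated together unevenly across genes (r = 0.00789 to 0.769), and the numbers were not taken as pairs there.

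The group means leaned upward in shTet2. They were higher in shTet2 than in shScr for 63 of the 80 rows, 19 of the 21 other than tRNA and 44 of the 59 tRNA rows, beside 60.7% of all classes, with a median difference of 0.24 against 0.04 over all classes. Against shTet1 they were higher for 67 of 80, beside 69.9% of all classes, with a median of 0.24 against 0.08. Between shTet1 and shScr they were higher for 40 of 80, beside 38.6% of all classes, with a median of -0.00 against -0.06. The counts against shScr and against shTet1 share the shTet2 libraries and are not independent. With values centred on the library medians, the counts in shTet2 were 59 and 58. Scaled by the reads on repeats they were 51 and 49, with medians of 0.11 and 0.04 against -0.09 and -0.13 over all classes, and without shTet2 replicate 3 they were 51 and 62. Without shTet1 replicate 2, 32 rows were higher in shTet1 than in shScr. Leaving out the 4 libraries rich in receptor reads, a setting chosen after seeing the data, gave counts in shTet2 of 62 and 69. The medians were then 0.31 from shScr and 0.26 from shTet1, against 0.105 and 0.38 over all classes. From shTet1 the rows thus leaned less than all classes. Between shTet1 and shScr 37 rows were higher, with a median of -0.02 against -0.28.

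**Figure D1:**
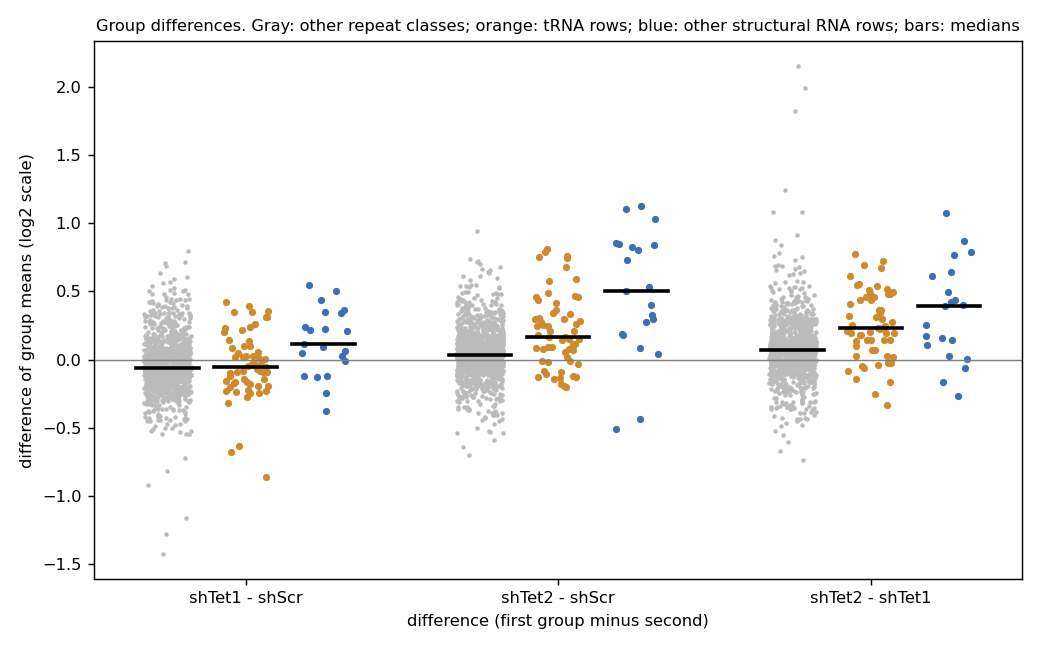
Differences of group means on the log2 scale for classes outside the structural RNAs (gray), tRNA rows (orange) and the other structural RNA rows (blue), with bars at the medians. The medians of the 21 other rows were 0.12, 0.50 and 0.39 in the 3 comparisons.

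The rRNA row LSU-rRNA_Hsa, which gathers reads of the large ribosomal subunit rRNA, had the widest spread between libraries of a group. It was at 4190, 4978, 1483, 1720 and 1297 RPM in shScr replicates 1 to 5. In shTet1 it was at 4628, 21964, 1503, 1532 and 1324 RPM, and in shTet2 at 4634, 13706, 4159, 2020 and 2245 RPM. In each group replicates 1 and 2 were above replicates 3 to 5, and the groups overlapped. The means were 2734 ± 1718 (shScr), 6190 ± 8925 (shTet1) and 5353 ± 4808 RPM (shTet2; SD, n = 5 each). The difference from shScr was 0.43 in shTet1 (95% confidence interval -1.06 to 1.93) and 0.82 in shTet2 (-0.67 to 2.32). Without replicate 2 of shTet1 the shTet1 difference was -0.27, and without replicate 2 of shTet2 the shTet2 difference was 0.39. With the replicate number as a block, the intervals were -0.15 to 1.02 in shTet1 and 0.24 to 1.41 in shTet2. The adjusted p of that fit (limma) was 0.998 and 0.9999. Of the libraries of the same number, 4 of 5 in shTet1 and 5 of 5 in shTet2 were above shScr, though the numbers were not taken as pairs for shTet2. SSU-rRNA_Hsa, the small subunit rRNA, ranged from 1967 to 4272 RPM in shScr, from 1576 to 15635 in shTet1 and from 3161 to 5388 in shTet2. Its highest value was again in shTet1 replicate 2, with 3757 RPM as the highest of replicates 3 to 5 of that group. The ratio of LSU to SSU reads was 0.408 to 0.886 in replicates 3 to 5 and 0.981 to 2.54 in replicates 1 and 2 of the 3 groups, with the highest ratio in shTet2 replicate 2. 5S, a small rRNA that is made apart from the others, was at 21.8 to 41.1 RPM in shScr, 21.7 to 37.4 in shTet1 and 24.4 to 41.8 in shTet2. Its differences from shScr were -0.12 (-0.65 to 0.42) in shTet1 and 0.04 (-0.49 to 0.57) in shTet2.

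**Figure D2:**
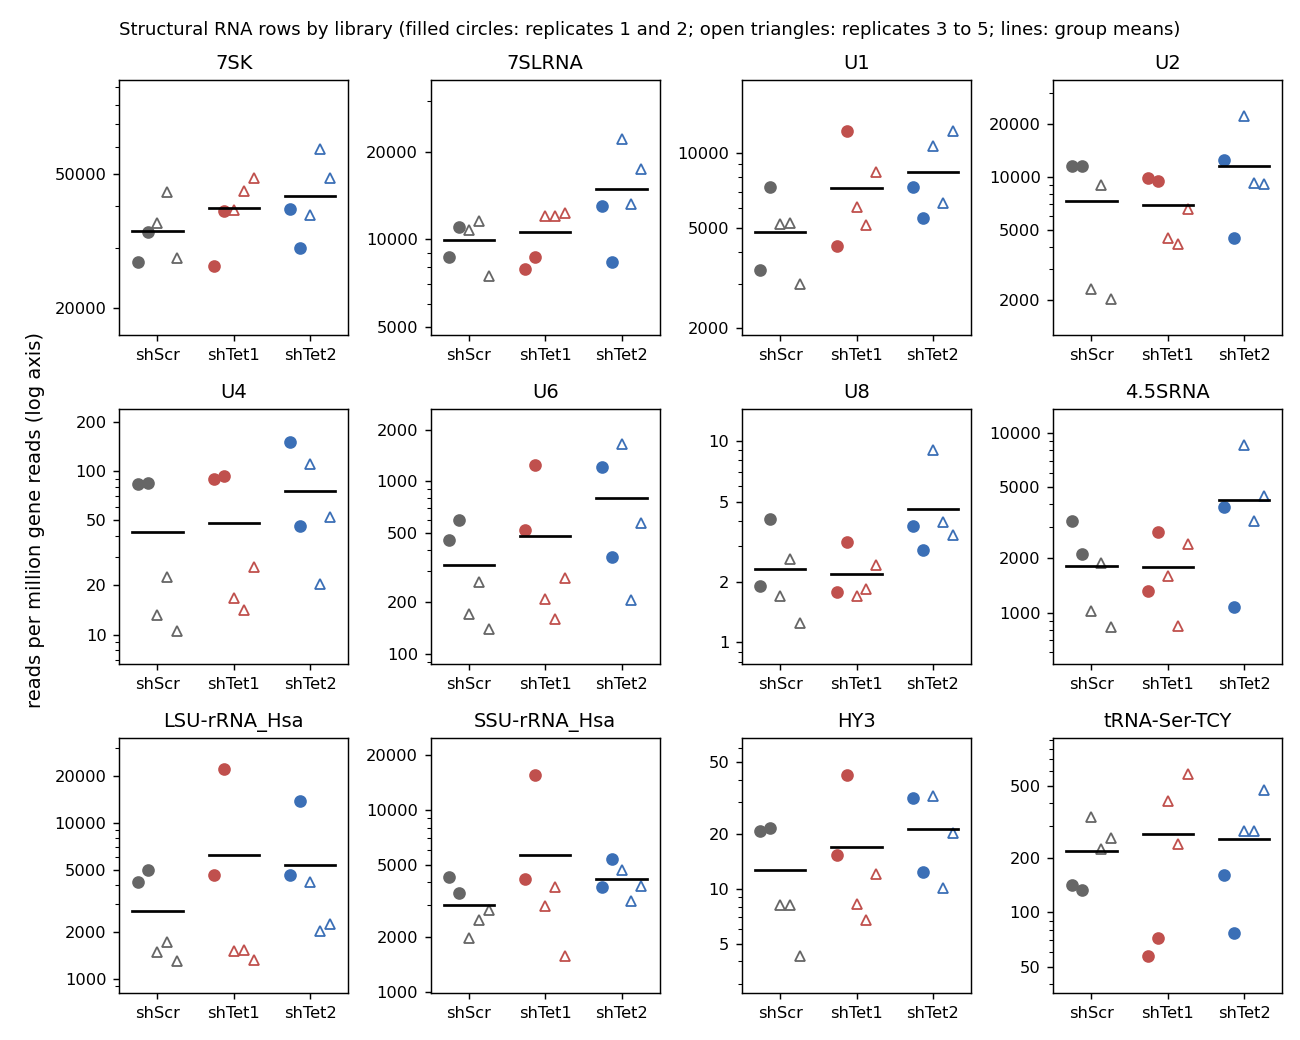
Levels of 12 rows in the 15 libraries, in RPM on a log axis. Filled circles are replicates 1 and 2, open triangles replicates 3 to 5, and lines the group means. LSU-rRNA_Hsa was higher in replicates 1 and 2 than in 3 to 5 in every group, up to 21964 in shTet1 replicate 2, while tRNA-Ser-TCY was lower in them in every group.

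Of the spliceosomal snRNAs, U4 and U6 had the widest spread. U4 pairs with U6 in the tri-snRNP and leaves before the first step of splicing. U4 was at 83.3, 84.0, 13.2, 22.4 and 10.6 RPM in shScr replicates 1 to 5, at 89.3, 93.7, 16.7, 14.1 and 25.9 RPM in shTet1 and at 151, 46.3, 110, 20.4 and 52.4 RPM in shTet2. Replicates 1 and 2 stood above the others in shScr and shTet1, and replicates 1 and 3 were the highest in shTet2. U6, the snRNA at the catalytic centre of the spliceosome, was at 454, 600, 169, 262 and 139 RPM in shScr, at 523, 1253, 207, 159 and 275 RPM in shTet1 and at 1205, 363, 1653, 204 and 571 RPM in shTet2. The difference of U6 between shTet2 and shScr was 1.13 (-0.18 to 2.43, exact permutation p = 0.159, two-sided), and it was 0.77 without shTet2 replicate 3. All 3 groups of U6 values overlapped. For U4 the difference was 1.03 (-0.46 to 2.52, exact permutation p = 0.238). With the replicate number as a block, the intervals of U6 and U4 between shTet2 and shScr were wholly positive, and neither row passed adjustment. Between shTet1 and shScr the differences were 0.36 (-0.95 to 1.67) for U6 and 0.24 (-1.25 to 1.73) for U4. There were 5.45 to 15.0 reads on U6 for each read on U4, and shScr replicate 1 and shTet2 replicate 3 were the extremes.

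U2, which pairs with the branch site, was at 11513, 11544, 2309, 8954 and 2007 RPM in shScr, at 9834, 9404, 4478, 4151 and 6551 RPM in shTet1 and at 12477, 4490, 22272, 9267 and 9040 RPM in shTet2. The groups overlapped, and shTet2 replicate 3 held the highest value. The difference between shTet2 and shScr was 0.85 (-0.25 to 1.95). Within replicates 1 and 2 it was -0.62 and within replicates 3 to 5 it was 1.83. U1, which marks the 5′ splice site, was at 3414, 7319, 5215, 5254 and 2990 RPM in shScr, at 4263, 12262, 6056, 5134 and 8401 RPM in shTet1 and at 7279, 5509, 10652, 6291 and 12197 RPM in shTet2. Only shScr replicate 2 lay above the lower values of shTet2. U1 differed by 0.80 between shTet2 and shScr (0.13 to 1.47, exact permutation p = 0.0476), with an adjusted p of 1.00 over all classes tested, and by 0.55 between shTet1 and shScr (-0.12 to 1.22). It was higher in shTet2 in 4 of 5 libraries of the same number, though the numbers were not taken as pairs for these groups. The difference had the same sign within replicates 1 and 2 (0.34) and 3 to 5 (1.11). U5, which aligns the exons, differed less, at 12.3 to 36.9 RPM in shScr, 11.4 to 26.4 in shTet1 and 20.7 to 32.9 in shTet2, with a difference of 0.28 (-0.35 to 0.91) between shTet2 and shScr. U7, which acts in the 3′ processing of histone mRNA, had 2 to 25 reads per library, and its difference between shTet2 and shScr was -0.51 (-1.18 to 0.16).

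Among the snoRNAs, U8, which is needed for the processing of the large subunit rRNA, had the lowest p of the tested rows other than tRNA in both comparisons with shTet2. It was at 1.90, 4.09, 1.71, 2.58 and 1.25 RPM in shScr, at 1.79, 3.15, 1.70, 1.83 and 2.41 RPM in shTet1 and at 3.77, 2.87, 9.04, 3.98 and 3.39 RPM in shTet2. All shTet2 libraries but replicate 2 were above every shTet1 library, and replicate 2 of shScr lay above 4 of the shTet2 libraries. U8 differed by 0.86 between shTet2 and shScr (0.19 to 1.53, exact permutation p = 0.0476) and by 0.87 between shTet2 and shTet1 (0.20 to 1.54, exact permutation p = 0.0159), and neither passed adjustment over all classes (adjusted p = 1.00 and 0.999). The libraries held 28 to 141 reads on U8. Without shTet2 replicate 3 the differences were 0.60 and 0.61. U3, which acts in the processing of the small subunit rRNA, ranged from 38.8 to 159 RPM in shScr, from 58.3 to 193 in shTet1 and from 48.7 to 362 in shTet2, and shTet2 replicate 3 was again the highest. Its difference between shTet2 and shScr was 0.73 (-0.33 to 1.80), made up of -0.64 within replicates 1 and 2 and 1.64 within replicates 3 to 5. U13, U14 and U17 differed from shScr by 0.05 to 0.40 in either depletion, and the 95% confidence interval of each included 0.

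7SK was one of the steadier rows. It was at 27437, 33530, 35641, 44096 and 28079 RPM in shScr, at 26606, 38838, 39054, 44373 and 48537 RPM in shTet1 and at 39343, 30002, 37625, 59198 and 48370 RPM in shTet2. All 3 groups overlapped, and the SD within groups was 0.33 on the log2 scale. It differed from shScr by 0.22 in shTet1 (-0.23 to 0.67) and 0.33 in shTet2 (-0.12 to 0.78). 7SLRNA was at 8695, 11058, 10768, 11534 and 7483 RPM in shScr, at 7913, 8715, 11985, 12073 and 12290 RPM in shTet1 and at 12996, 8360, 22167, 13285 and 17458 RPM in shTet2. Every shTet2 library but replicate 2 was above every shScr and shTet1 library. The difference from shScr was 0.53 in shTet2 (0.02 to 1.03, exact permutation p = 0.0873, adjusted p = 1.00) and 0.09 in shTet1 (-0.41 to 0.60). Within replicates 1 and 2 the shTet2 difference was 0.09, and within replicates 3 to 5 it was 0.82. 4.5SRNA, a small RNA of rodents, had the largest difference between shTet2 and shScr after U6. It was at 3224, 2105, 1026, 1897 and 828 RPM in shScr, at 1319, 2816, 1596, 844 and 2417 RPM in shTet1 and at 3866, 1075, 8513, 3216 and 4433 RPM in shTet2. The shTet2 difference was 1.11 from shScr (0.07 to 2.14) and 1.08 from shTet1 (0.04 to 2.11), with an exact permutation p of 0.0952 in both. Within replicates 1 and 2 the difference from shScr was -0.35, against 2.08 within replicates 3 to 5. Without shTet2 replicate 3 it was 0.78.

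BC1_Mm, best known as a neuronal RNA, was at 494 to 1075 RPM in shScr, 386 to 1161 in shTet1 and 329 to 1140 in shTet2, and differed from shScr by 0.06 (-0.76 to 0.88) and 0.08 (-0.74 to 0.91). Y RNAs bind the Ro protein and are linked to RNA quality control and DNA replication. HY3 held most of their reads, at 4.28 to 21.7 RPM in shScr, 6.78 to 42.7 in shTet1 and 10.1 to 32.7 in shTet2, and differed between shTet2 and shScr by 0.84 (-0.25 to 1.93). With the replicate block that interval was 0.055 to 1.62, with an adjusted p of 0.9999 (limma). HY1 was at 0.976 to 4.19 RPM over the 15 libraries. HY4 had at most 10 reads in a library.

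**Figure D3:**
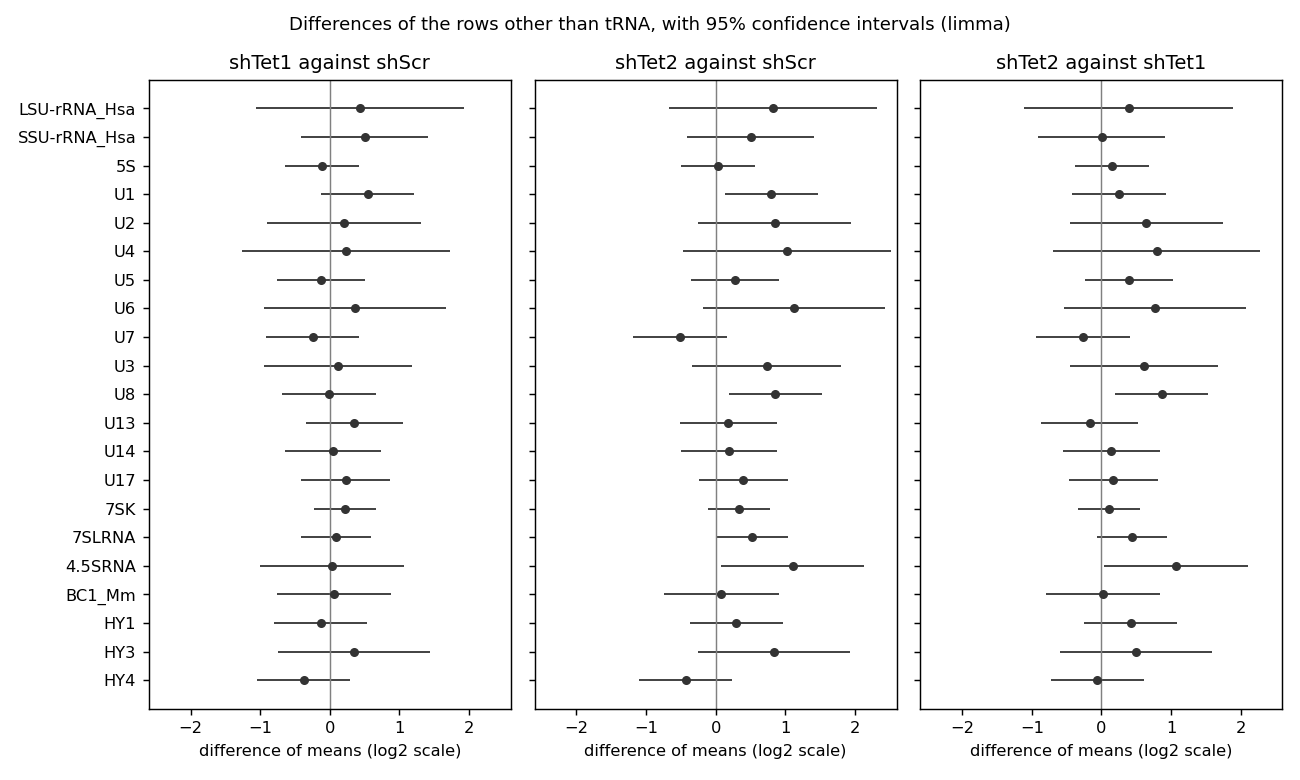
Differences of group means on the log2 scale with 95% confidence intervals from limma, for the 21 tested rows other than tRNA in the 3 comparisons. Most intervals include 0. Those of 4.5SRNA, U1, U8 and 7SLRNA between shTet2 and shScr and of 4.5SRNA and U8 between shTet2 and shTet1 do not.

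tRNAs are the adaptors that bring amino acids to the ribosome, and the reads on their rows summed to 768 to 979 RPM in shScr, 391 to 1582 in shTet1 and 494 to 1470.5 in shTet2. The group means were 846 ± 86.8 (shScr), 907 ± 480 (shTet1) and 988 ± 393 RPM (shTet2; SD, n = 5 each), so that the means differed by less than the spread in shTet1 and shTet2. The reads were uneven across the rows. tRNA-Ser-TCY held 27.0% of the reads on tRNA rows and the 5 rows with the most reads held 56.3%, while 30 of the 60 rows had under 100 reads per library on average. By amino acid, serine rows took 33.3% of the reads, alanine rows 17.5% and valine rows 8.18%.

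The 5 rows with the highest mean values differed in spread. tRNA-Ser-TCY was at 141, 133, 336, 224 and 256 RPM in shScr, at 57.3, 71.6, 412, 239 and 578 RPM in shTet1 and at 161, 76.9, 281, 283 and 472 RPM in shTet2. In each group replicates 1 and 2 were below replicates 3 to 5. tRNA-Val-GTY was at 28.8 to 69.0 RPM in shScr, 12.1 to 127 in shTet1 and 20.7 to 139 in shTet2, and tRNA-Tyr-TAC at 32.4 to 63.9, 9.0 to 115 and 24.8 to 115 RPM. In shTet1 the highest library was 10.1 times the lowest for tRNA-Ser-TCY, 10.5 times for tRNA-Val-GTY and 12.8 times for tRNA-Tyr-TAC. tRNA-Gln-CAG was at 19.8 to 51.9 RPM in shScr, 18.6 to 70.5 in shTet1 and 22.1 to 94.6 in shTet2. tRNA-Ala-GCY_ stayed at 107 to 136 RPM in shScr, 88.0 to 139 in shTet1 and 97.9 to 126 in shTet2. It had the smallest SD within groups of the tested tRNA rows, 0.20, ahead of tRNA-Ala-GCA (0.24) and tRNA-Gly-GGA (0.32). The largest were those of tRNA-Ser-TCY (1.08), tRNA-Val-GTY (1.06) and tRNA-Tyr-TAC (0.99).

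Between groups, several of the tRNA rows with the largest differences had few reads. tRNA-Thr-ACG_ was at 0.522, 0.915, 0.146, 0.738 and 0.580 RPM in shScr, at 0.0714, 0.183, 0.170, 0.247 and 0.139 RPM in shTet1 and at 0.272, 0.298, 0.459, 0.818 and 0.541 RPM in shTet2, from 2 to 29 reads per library. Its shTet1 values were below all shTet2 values and below all shScr values but that of replicate 3, which fell among them. It differed by -0.86 between shTet1 and shScr (-1.45 to -0.27, exact permutation p = 0.0317) and by 0.73 between shTet2 and shTet1 (0.13 to 1.32, exact permutation p = 0.00794, the smallest this design allows). tRNA-Pro-CCY was at 1.33, 1.08, 1.12, 1.42 and 0.580 RPM in shScr, at 0.750, 0.403, 0.566, 0.792 and 0.372 RPM in shTet1 and at 1.24, 0.931, 1.25, 2.06 and 0.886 RPM in shTet2. Here too all shTet1 libraries were below all shTet2 libraries. The difference was -0.63 between shTet1 and shScr (-1.17 to -0.10, exact permutation p = 0.0238) and 0.78 between shTet2 and shTet1 (0.24 to 1.31, exact permutation p = 0.00794). tRNA-Leu-TTA(m) was higher by 0.81 in shTet2 than in shScr (0.16 to 1.46, exact permutation p = 0.0159) on at most 10 reads per library. No tRNA row passed adjustment, and the lowest adjusted p was 0.965, that of tRNA-Pro-CCY between shTet2 and shTet1.

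The other tRNA rows at the ends of the comparisons had intervals that included 0 in the fit without the replicate block. Between shTet1 and shScr these were tRNA-Ser-TCA_ (-0.68, where the interval with the replicate block was -1.27 to -0.08 and the adjusted p 0.998), tRNA-Arg-CGA (0.42), tRNA-SeC(e)-TGA (0.39), the selenocysteine tRNA, and tRNA-His-CAY (0.35, on 18 reads in all). Between shTet2 and shScr they were tRNA-Gln-CAG (0.79), tRNA-Arg-CGA (0.76), tRNA-Arg-CGA_ (-0.20), tRNA-Gly-GGA (-0.19) and tRNA-Leu-CTG (-0.18). With the replicate block the interval was 0.02 to 1.56 for tRNA-Gln-CAG and 0.035 to 1.48 for tRNA-Arg-CGA. Neither passed adjustment (limma, adjusted p = 0.9999 for each). Between shTet2 and shTet1 they were tRNA-Gly-GGA (-0.33), tRNA-Thr-ACA (-0.25), tRNA-Glu-GAG (-0.16) and tRNA-Gln-CAG (0.69).

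The spread between libraries of a group was near that of the other classes for the rows as a whole, and unlike it for some. The median SD within groups was 0.54 over the 80 rows and 0.53 over all 1187 classes. LSU-rRNA_Hsa (SD 1.29) and U4 (1.28) were at percentiles 99.0 and 98.9 of all classes, U6 (1.12) at 97.6, tRNA-Ser-TCY at 96.9 and tRNA-Val-GTY at 96.5. U2 (0.94), HY3 (0.91), U3 (0.89) and 4.5SRNA (0.87) were at percentiles 90.7 to 92.8. At the other end, tRNA-Ala-GCY_ was at percentile 2.95, tRNA-Ala-GCA at 4.89 and 7SK at 16.2.

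**Figure D4:**
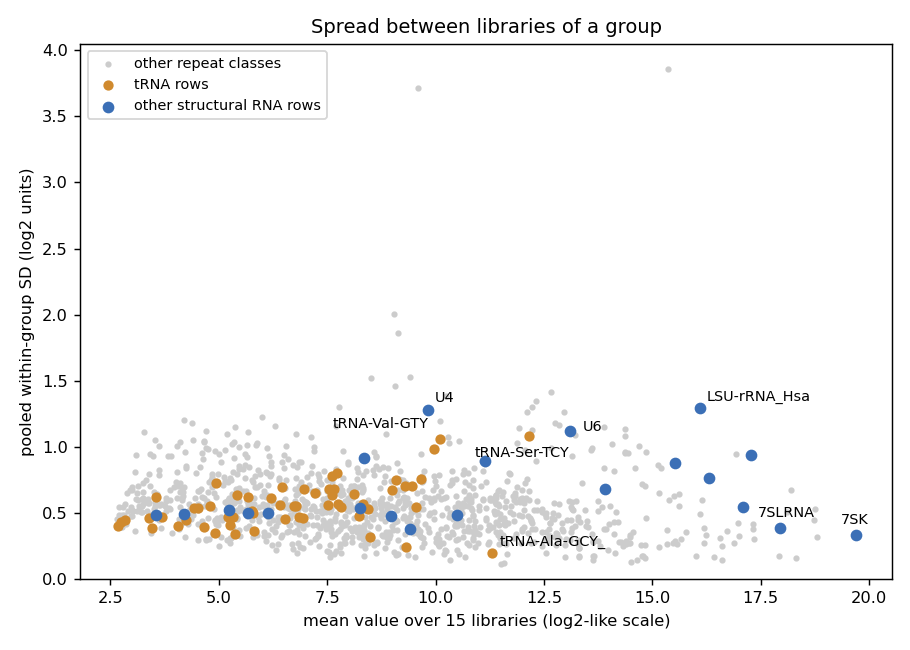
SD within groups against the mean value over the 15 libraries, both on the log2-like scale, for all 1187 classes tested. The structural RNA rows lie across the cloud, with LSU-rRNA_Hsa and U4 at 1.29 and 1.28 and tRNA-Ala-GCY_ at 0.20.

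Part of this spread followed the replicate numbers. These numbers are not given as a batch by the labels, and the values are a description with no test. Replicates 1 and 2 were on average above replicates 3 to 5 in all 3 groups for 10 of the 21 rows other than tRNA and for 5 of the 59 tRNA rows, against 4.13% of all classes. They were below them in all 3 groups for 14 tRNA rows and for 2 other rows, 7SK and BC1_Mm, against 51.3% of all classes. The differences were 1.62, 2.80 and 1.58 for LSU-rRNA_Hsa in shScr, shTet1 and shTet2, 2.48, 2.29 and 0.76 for U4, and -0.97, -2.58 and -1.58 for tRNA-Ser-TCY. Ranked by the smallest of the 3 differences, LSU-rRNA_Hsa was the first and U4 the third among the 1187 classes. For U1, U2, U3, U8 and 4.5SRNA the sign was positive in shScr and shTet1 and negative in shTet2.

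**Figure D5:**
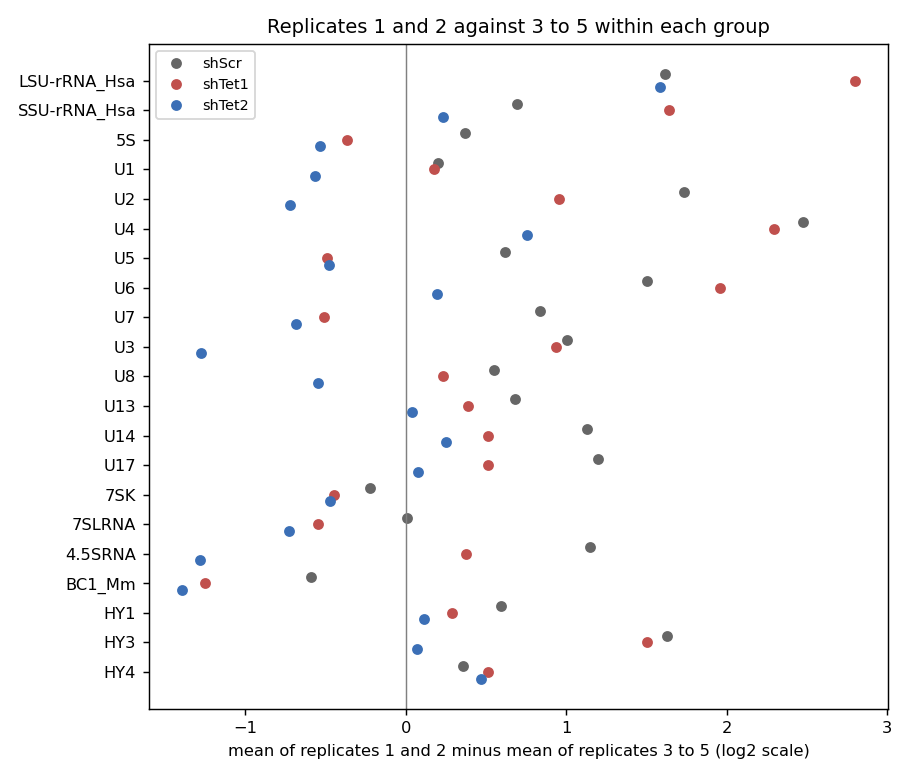
Mean of replicates 1 and 2 minus mean of replicates 3 to 5 on the log2 scale, for the 21 tested rows other than tRNA, by group. LSU-rRNA_Hsa and U4 were above 0 in all 3 groups, and 7SK and BC1_Mm below it.

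The libraries that stood highest differed from those of most repeat classes. In shScr, replicate 4, one of the libraries rich in receptor reads, had the highest value of its group for 906 of the 1187 classes but for 17 of the 80 structural RNA rows, and replicate 2 was highest for 36 of the 80. In shTet1, replicate 5 was highest for 37 of the 59 tRNA rows and replicate 2 for 13 of the 21 other rows, and these libraries were highest for 75 and 47 of all classes. In shTet2, replicate 3 was highest for 27 tRNA rows and 14 other rows and for 453 of all classes, and replicate 4 for 6 of the 80 rows and 572 of all classes. Replicate 2 of shTet2 was lowest for 48 of the 80 rows and 574 of all classes. The labels name 2 kits for RNA extraction without saying which library had which. With the 4 libraries rich in receptor reads left out, 0 of the 80 rows passed the adjusted test in each comparison.

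Few mRNAs of the proteins that make or bind these RNAs passed the test. Over 9 gene lists with 130 tested genes, 0 genes passed between shTet1 and shScr (0.0718% of all 19490 genes tested passed), 0 between shTet2 and shScr (0.39%) and 2 between shTet2 and shTet1 (4.24%). Of the list genes, 12, 15 and 13 had an unadjusted p under 0.05 in the 3 comparisons, beside 11.8%, 11.6% and 15.7% of all genes. Polr3gl, a subunit of RNA polymerase III that replaces Polr3g in part of the enzyme, was lower in shTet2 than in shTet1, with a difference of -1.44 on the log2 scale (-2.02 to -0.85, adjusted p = 0.00501), at 7.07 ± 0.55 in shTet2, 8.50 ± 0.35 in shTet1 and 7.27 ± 0.56 in shScr (SD of the deposited values, 5 libraries a group). Its difference between shTet1 and shScr was 1.23 (0.65 to 1.81, adjusted p = 0.0792), higher in 5 of 5 libraries of the same number, and with the replicate number as a block the adjusted p was 0.00603. Lsm5, of the ring that binds the end of U6, was lower in shTet2 than in shTet1, with a difference of -0.96 (adjusted p = 0.0201), a call lost in 4 of 10 fits that left out 1 library of these groups.

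Apart from these 2 genes, the 13 subunits of RNA polymerase III, the 19 transcription factors of polymerase III with Maf1, the 12 genes of polymerase I transcription, the 19 of tRNA processing and export, the 20 cytosolic aminoacyl-tRNA synthetases, the 30 snRNP proteins, the 7 of the 7SK particle and P-TEFb, the 8 of the signal recognition particle and the 2 Ro and La proteins held no call in the 3 comparisons. With the replicate block, 4 genes of the lists passed between shTet1 and shScr, beside 4.8% of all genes, and 8 between shTet2 and shTet1, beside 11.2%. Between shTet2 and shScr it gave 5, beside 4.31%. The 4 between shTet1 and shScr were Polr3gl, Gtf3a (0.41, adjusted p = 0.0297), the 5S transcription factor TFIIIA, Elac2 (-0.47, adjusted p = 0.0436), the nuclease that trims tRNA 3′ ends, and Srp9 (-0.49, adjusted p = 0.0326) of the signal recognition particle. The largest difference of each list between shTet2 and shScr was in Lsm5 (-0.92), Pou2f1 (-0.80), which binds snRNA promoters, Trove2 (-0.39), the Ro protein, Ttf1 (-0.39), which ends polymerase I transcription, Trdmt1 (-0.33), a tRNA methyltransferase, Ccnt2 (-0.30), a cyclin of P-TEFb, Polr3c (0.29), Eprs (-0.29), a synthetase, and Srp14 (-0.16). None of these passed without the replicate block, with an adjusted p of 0.0861 for Lsm5, 0.0919 for Pou2f1 and 0.255 to 0.853 for the others. With the block Lsm5, Pou2f1 and Trove2 passed (limma, adjusted p = 0.00331, 0.0276 and 0.0475), and the others of these did not. Between shTet1 and shScr the largest difference of a list was in Prpf8 (-0.50), of the U5 snRNP, Cd3eap (-0.39), of polymerase I, and Farsb (-0.32), a synthetase. For other lists it was in Trove2 (-0.28) and Larp7 (-0.25), which holds the 7SK particle together, besides those named above. Without the block these 5 genes had an adjusted p of 0.322 to 0.673. The medians of the lists ran from -0.18 to 0.03 in shTet1 and from -0.26 to -0.03 in shTet2 against shScr, beside 0.01 and 0.04 over all genes.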

How the data were processed

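E14 ESC RNA-seq was analysed in 15 libraries, 5 each of shScr, shTet1 and shTet2. Per the labels and the study's methods, directional rRNA-depleted libraries were read as single ends, trimmed with Trim Galore 0.3.3 and aligned to mm9 with TopHat2 2.0.9. Seqmonk counted the reads of genes and of pooled repeat classes, and the authors deposited variance-stabilised values from DESeq2, on a log2-like scale, with no counts beside them. A repeat row sums all its copies, and a read that fits several places was kept at 1 of them.

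The transformation was inverted with the value of 0 reads (the table minimum, 2.39 for repeats and 4.25 for genes). Of the inverted values above 0 and low enough to be checked, 100% were whole multiples of 1 read within 0.1 read. Higher values, which include the rows with the most reads, were rounded to whole reads without that check. The size factors of the repeat table were those of the gene read totals, to within 0.000974. The 82 rows, the gene lists and the tests were chosen with earlier results of these data known. Values were tested as deposited with limma 3.58.1 in R 4.3.3 (lmFit, eBayes with trend, two-sided), with group as the only term and all 15 libraries in the fit, over 1187 classes and 19490 genes above the minimum in at least 5 of 15 libraries, with Benjamini-Hochberg adjustment at 0.05. Intervals are 95% confidence intervals. Single rows were also tested with exact permutation of 5 against 5 libraries, where the smallest p is 0.00794. The fit was tested on simulated data with independent noise. It recovered 58% of 100 repeat classes changed by 1 log2 unit and 96% of 100 changed by 2. For genes these were 72% and 98%, and each table had 6 false calls. Both sets of 100 were changed at once. Rates with fewer changed rows, or with noise shared by the rows of a library, were not tested. Reads sum to 15258291 to 35432425 per library on genes, which sets the precision of low rows. Over the 30 pairs of libraries within groups, the lowest chi-square of the reads on the rows was 211 per degree of freedom, and each library was counted once.

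Named rows were all those other than tRNA and, of the tRNA rows, the 5 with the highest mean, the 3 with the largest rise and fall in each comparison and the 3 with the largest and smallest SD within groups. Named genes were Tet1, Tet2, those called in the lists and the gene with the largest difference from shScr in each list. Same-numbered libraries deviated together across genes, with r = 0.374 to 0.657 for shTet1 with shScr and r = 0.33 to 0.731 for shTet2 with shTet1, and there a fit with the replicate number as a block stands beside the fit without it, from which all other values come. For shTet2 with shScr r was 0.00789 to 0.769, and it was over 0.1 in 4 of 5 pairs. The numbers were not taken as pairs there, and some values with the block are given beside the others. Alternatives changed the filter, scaling, pseudocount, variance trend, weights, block, covariate and libraries. Sequences of tRNA, 7SL, 4.5S and the large rRNAs were not used here, and 1 further sequence is not reported here.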

Additional observations from a re-analysis of the deposited data

Results flagged for a closer look

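Of 129 groups of 5 values examined (named rows and sums over rows, by group), 3 held a library far from the others of its group, and chance sets about 1 in 20 such groups apart. All 3 are values on the deposited log2-like scale. U13, a small nucleolar RNA, was at 6.23 in shTet1 replicate 2, with the next library of the group at 5.32 and the lowest at 5.07. That library also held the most reads on the rRNA rows. U8 was at 7.74 in shTet2 replicate 3, with the next at 6.63 and the lowest at 6.21, and this library was also the highest of its group for 14 of the 21 rows other than tRNA. tRNA-His-CAY was at 3.07 in shScr replicate 4 and at the table minimum of 2.39 in the other 4 libraries of the group, which is 1 read against 0. The part of the library itself in these values was not tested.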

How the results depend on the processing

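No structural RNA row passed in any comparison under any alternative but one. With array weights, 28 rows passed between shTet2 and shTet1 (27 higher, 1 lower, 35.0% of the rows), beside 531 of all classes (44.7%), in a fit that gave shTet2 replicate 5 a weight of 6.89 and shTet1 replicate 3 one of 0.167, and 22 classes passed between shTet1 and shScr. Over all classes, the 3 calls between shTet2 and shTet1 became 9 with values centred on library medians, 5 with the replicate block, 0 with only those 2 groups in the fit, 10 with the receptor share as a covariate, 5 with the split of replicates as a term, 5 scaled by the reads on repeats, 10 without the 4 libraries rich in receptor reads (an alternative chosen after seeing the data), and 0 to 4 when 1 library was left out (0 without replicate 2 of shTet1 or replicates 2 or 4 of shTet2). Between shTet1 and shScr, 4 classes passed with the receptor share as a covariate. Calls in the gene lists went with the replicate block from 0 to 4 (shTet1 against shScr, beside 4.8% of all genes), from 0 to 5 (shTet2 against shScr, beside 4.31%) and from 2 to 8 (shTet2 against shTet1, beside 11.2%). Between shTet2 and shScr, 3 of 5 shTet2 libraries correlated best with their own number across genes, and 14 structural RNA rows had an unadjusted p under 0.05 with the block, beside 3.54% of all classes. Leaving out 1 library gave 0 to 2, 0 to 1 and 1 to 3, with 2 in the first without shTet1 replicate 5 and 1 in the second without that library or without replicates 3 or 5 of shTet2, and leaving out the 4 libraries gave 0, 0 and 1. Of 3477 refitted differences of 39 named rows, 3408 kept their side of the threshold and moved by less than the SD within groups, 58 moved further (34 within replicates 1 and 2) and 11 passed the threshold, all with array weights. Centring shifted every difference between shTet2 and shTet1 by -0.12, and scaling by the reads on repeats shifted that of 7SK by -0.22. The log2 ratios of summed rRNA, tRNA and other reads stayed within 1 SD of the libraries under both scalings and with any library left out, though some turned in sign (rRNA between shTet1 and shScr from 0.48 to -0.10, tRNA between shTet2 and shScr from 0.13 to -0.04). The causes were not tested, and rows with under 100 reads per library limit what could be seen.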
